A study of Homo sapiens with 9 samples.

Results

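The 5 pro-survival genes of the BCL2 family that were followed here, BCL2, BCL2L1, BCL2A1, MCL1 and BCL2L2, were taken by symbol from a table of 60656 genes. Each symbol matched 1 row. All 5 were measured by RNA-seq in RIVA, an activated B-cell-like (ABC) diffuse large B-cell lymphoma (DLBCL) line, in 9 libraries that fell into 3 groups of 3. The groups carried a doxycycline-inducible lentiviral plvx-Tetone construct that was empty (vector), or that encoded the truncation BCL10 S136X or the missense mutant BCL10 R58Q. Doxycycline was given to all 3 groups, the vector group included, for 24 h at 200 ng/mL, although another label of the same samples gives 200 ng/µL. The cells kept their own BCL10, and the vector group is labelled BCL10 wild type. The comparison bears on venetoclax, which binds BCL2, and asks how the transcripts of BCL2 and of its pro-survival relatives stood to each other when a BCL10 mutant was expressed.

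Pro-survival BCL2 proteins sit on the outer mitochondrial membrane, where they hold in check the effectors BAX and BAK1, which permeabilise the membrane and release cytochrome c. BH3-only proteins bind into a groove of the pro-survival proteins and displace what they hold. Venetoclax is a BH3 mimetic that fills this groove in BCL2 but binds BCL-xL (BCL2L1), MCL1, BFL1 (BCL2A1) and BCL-w (BCL2L2) poorly, so that these relatives can take over the work of BCL2 in treated cells. BCL2L1 and BCL2A1 are textbook targets of NF-kB, the pathway that BCL10 activates through MALT1.

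Total counts ranged from 28047713 to 33122267 per library. Introduced and endogenous BCL10 were counted together, and BCL10 stood at 26.3, 38.8 and 27.5 CPM (read counts relative to library size after TMM scaling) in the vector libraries, at 488, 409.6 and 345 in S136X and at 357, 338 and 309 in R58Q, so that mutant and vector libraries matched their labels. S136X and R58Q overlapped and were not told apart by this level. The table's column names carry 1 date for the vector and S136X libraries and another for R58Q. What that date records is not stated, and date and mutant cannot be told apart in any comparison that involves R58Q. The B-cell markers were all detected, with 7 of 7 summing to between 3356 and 4102 CPM over the 9 libraries. Of these 7, 2 passed with each mutant by the test described below, where 10.1% (S136X) and 21% (R58Q) of all genes passed. IRF4 rose (log2 0.67 and 0.76), while CD79B fell by 0.39 with S136X (adjusted p = 0.0361, edgeR) and CD79A by 0.35 with R58Q (adjusted p = 0.0466). With the other mutant neither passed. There CD79B was at log2 -0.31 with R58Q (adjusted p = 0.130) and CD79A at -0.34 with S136X (adjusted p = 0.0927). T-cell markers summed to at most 7.36 CPM and myeloid markers to at most 0.589 CPM. KRT19 and VWF were at 0 in every library, and the epithelial markers summed to between 32.9 and 53.6 CPM, with the 3 groups overlapping. Of the fibroblast markers, COL3A1 had at most 3 counts and COL1A1 was higher in both mutants, taking their sum from between 3.09 and 5.15 CPM in vector to between 9.64 and 16.3 in S136X and between 10.7 and 17.2 in R58Q. Of the endothelial markers only PECAM1 was detected, and their sum was 17.2 to 19.2 CPM in vector, 7.72 to 14.4 in S136X and 11.2 to 16.8 in R58Q. The part of these genes in the results below was not tested.

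All 5 members passed the filter on low counts in each comparison. A gene passed where the quasi-likelihood F test of edgeR gave p under 0.05 after Benjamini-Hochberg adjustment over all genes tested, and was called where it also differed at least 1.5-fold. BCL2, BCL2L1 and BCL2A1 rose with both mutants, BCL2A1 by the most, whereas MCL1 and BCL2L2 passed in neither. With S136X, 3 of 5 members passed, all higher, where 10.1% of the 15530 genes tested passed in either direction and 6.03% were higher. Of these, 2 members were called, where 3.87% of all genes were called and 2.05% were called higher. With R58Q, 3 of 5 passed, all higher, where 21% of 15435 genes passed and 12.3% were higher. Called were 2 members, beside 7.63% of all genes and 4.09% in the higher direction. The median log2 fold change over the 5 members was 0.43 with S136X and 0.51 with R58Q, beside -0.02 and -0.03 over all genes tested. The 2 comparisons share the vector libraries. Scaling by total counts alone moved the share of called genes that were higher, over all genes, from 53.1% to 41.1% with S136X and from 53.7% to 42.6% with R58Q (41.2% with upper-quartile scaling), and left the members' calls against vector as they were.

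BCL2, the target of venetoclax (chr18:63123346-63320128, minus strand, GRCh38), was at 1618, 1668 and 1753 CPM in vector replicates 1 to 3. It was at 2318, 2246 and 2224 CPM in S136X and at 2375, 2192 and 2630 CPM in R58Q. All 6 mutant libraries lay above all 3 vector libraries, and the 2 mutants overlapped. The share of all genes whose groups separate in this way was not computed, here or below. From a mean of 1679.6 ± 68.6 CPM (SD, n = 3) in vector, BCL2 rose to 2262 ± 49.1 in S136X and 2399 ± 220.1 in R58Q. The log2 fold change was 0.43 (SE 0.07, adjusted p = 0.00675, edgeR) with S136X and 0.51 (SE 0.09, adjusted p = 0.00569) with R58Q. These are 1.35-fold and 1.43-fold, under the 1.5-fold threshold, so BCL2 passed but was not called.

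BCL2L1, which encodes BCL-xL (chr20:31664452-31723989, minus strand), was at 146, 128 and 135.8 CPM in vector. It was at 243, 252 and 235 CPM in S136X. In R58Q it was at 361, 321 and 366 CPM, so the 3 groups did not overlap. BCL2L1 rose 1.78-fold with S136X (log2 0.83, SE 0.07, adjusted p = 0.000278) and 2.55-fold with R58Q (log2 1.35, SE 0.08, adjusted p = 4.56e-05). The antisense transcript ABALON covers 43.0% of the exon bases of BCL2L1. ABALON held between 18 and 73 counts per library against between 4202 and 11949 for BCL2L1. Whether the counting used strand is not stated, so how reads in the shared bases were assigned is not known. The exon length used for BCL2L1 below includes those bases.

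BCL2A1, which encodes BFL1 and is best known as an NF-kB-induced survival gene of activated B cells (chr15:79960892-79971196, minus strand), started lowest of the 3 that rose. It was at 26.4, 35.7 and 36.2 CPM in vector, at 89.2, 113 and 111 CPM in S136X and at 165, 165 and 202 CPM in R58Q. Again the 3 groups did not overlap, and replicate 1 was the lowest library of the vector and S136X groups. BCL2A1 rose 3.18-fold with S136X (log2 1.67, SE 0.14, adjusted p = 0.000312) and 5.40-fold with R58Q (log2 2.43, SE 0.14, adjusted p = 4.56e-05). Of the 31-base words of its longest transcript, 10.7% are also in transcripts of other genes. No other gene shares more of them than ST20, which was at 1.74 to 3.56 CPM over the 9 libraries. The part in ST20 alone was not computed.

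MCL1, the short-lived member whose protein is turned over by several ubiquitin ligases (chr1:150574551-150579738, minus strand), was at 245, 259 and 261 CPM in vector. In S136X it was at 212, 254 and 221 CPM, and in R58Q at 242, 289 and 253 CPM. The groups overlapped in every comparison. The log2 fold change was -0.16 with S136X (95% interval -0.33 to 0.02, adjusted p = 0.235) and 0.03 with R58Q (interval -0.14 to 0.21, adjusted p = 0.795). These intervals exclude a 1.5-fold change in either direction against vector. With S136X, MCL1 stayed below 0 in all 14 alternative fits described below (log2 -0.22 to -0.10). It passed in none of them, and the lowest adjusted p among these fits was 0.0536.

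BCL2L2, which encodes BCL-w (chr14:23298790-23311751, plus strand), was the lowest member, at 9.17, 11.2 and 11.6 CPM in vector. It was at 10.6, 10.1 and 10.1 CPM in S136X and at 9.87, 10.7 and 10.002 CPM in R58Q. All 3 groups overlapped, with log2 fold changes of -0.06 (interval -0.33 to 0.22, adjusted p = 0.807) and -0.07 (interval -0.34 to 0.21, adjusted p = 0.729). The readthrough gene BCL2L2-PABPN1 covers 19.4% of the exon bases of BCL2L2 and held at most 10 counts in any library, and reads in the shared part cannot be told apart.

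**Figure D1:**
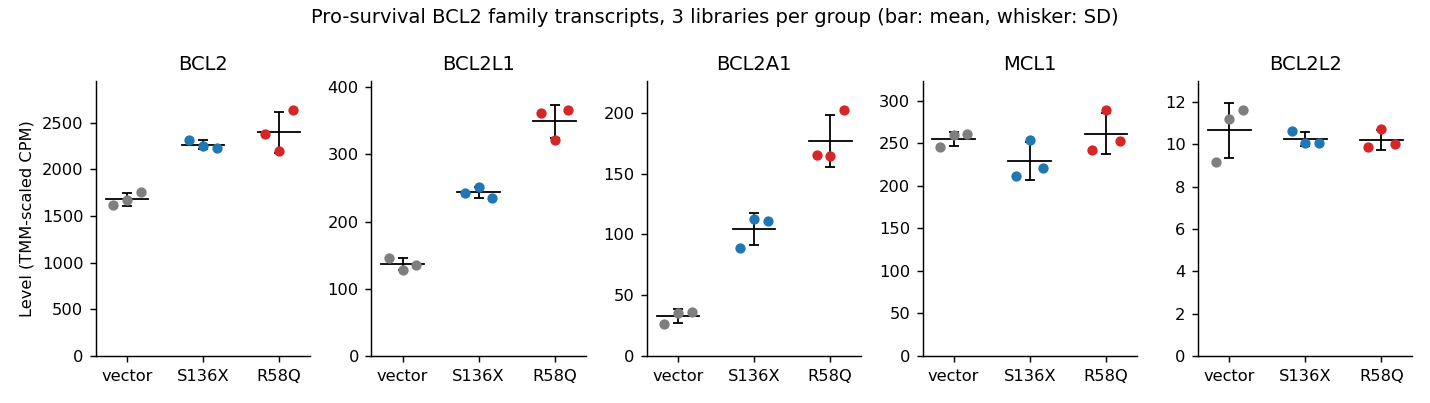
Level of each member in TMM-scaled CPM on linear axes from 0, with 1 point per library, the group mean as a bar and the SD as a whisker. The 6 mutant libraries lie above the 3 vector libraries for BCL2, BCL2L1 and BCL2A1, and the groups overlap for MCL1 and BCL2L2.

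Promoter windows from RefSeq (GRCh38.p14, 250 bases before to 50 after the start) were at hand for the 3 members that rose, 1 each for BCL2 and BCL2A1 and 2 for BCL2L1. They were searched on both strands for the NF-kB consensus, the AP-1 site TGANTCA and the interferon-gamma-activated (GAS) site TTCNNNGAA, which reads alike on both strands and is bound by STAT factors. These motifs are held by 5.91%, 7.71% and 7.66% of all 35116 windows. The GAS letters in the BCL2A1 window were the 1 match. The sequence is shown because BCL2A1 rose the most, with the matching letters in capitals. It lies at chr15:79971346-79971374, is written along the minus strand that BCL2A1 is read from, and its motif starts at base -168 from the RefSeq start site. In the GENCODE annotation used for exon lengths, BCL2A1 reaches to base 79971446, so that these bases lie within the gene there.
BCL2A1: aggaagtggcTTCTCTGAAacattttcct

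Levels can be compared between genes only per length, so counts were divided by the kilobases of annotated exon, which run from 1089 bases for BCL2A1 to 11765 for BCL2. In vector the order of the mean levels was BCL2 (143 ± 5.83 CPM per kb, SD, n = 3), MCL1 (58.4 ± 1.94), BCL2L1 (41.2 ± 2.63), BCL2A1 (30.1 ± 5.05) and BCL2L2 (2.55 ± 0.311). In S136X, BCL2A1 (95.8 ± 12.1) and BCL2L1 (73.4 ± 2.45) stood above MCL1 (52.4 ± 5.05), behind BCL2 (192 ± 4.18). In R58Q the order was as in S136X, with BCL2 at 204 ± 18.7, BCL2A1 at 163 ± 19.7, BCL2L1 at 105 ± 7.34 and MCL1 at 59.8 ± 5.56 CPM per kb. BCL2A1 thus ranked below MCL1 and BCL2L1 in vector and above both in each mutant. No neighbours in these orders overlapped by library. With the length of the longest transcript in place of all exons the order was kept, and only BCL2A1 and BCL2L1 in S136X then overlapped.

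The share of the summed pro-survival transcripts, per length and within each library, followed these levels. Counts were per gene, so the annotated transcripts of a member (9 for BCL2L1 and 4 for MCL1) were not told apart. BCL2 held 52.1%, 51.5% and 52.2% in the vector libraries, the larger part of the sum. It held 48.8%, 44.3% and 45.6% in S136X and 38.8%, 37.0% and 38.6% in R58Q. No group overlapped another, and the mean went from 51.9 ± 0.366% in vector to 46.2 ± 2.35% in S136X and 38.1 ± 0.960% in R58Q (SD, n = 3). So the share of BCL2 was lower in the mutants although its level was higher.

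BCL2A1 held 9.19%, 11.9% and 11.6% of the sum in vector. Its share was 20.3%, 24.1% and 24.5% in S136X and 29.2%, 30.1% and 32.0% in R58Q. The difference from vector was 12.1 percentage points with S136X and 19.5 with R58Q. BCL2L1 gained less, from 15.03 ± 1.42% in vector to 17.6 ± 0.540% in S136X and 19.7 ± 1.04% in R58Q, and here too the groups did not overlap. MCL1 held 21.2 ± 0.346% in vector, 12.6 ± 0.793% in S136X and 11.2 ± 1.66% in R58Q, a lower share at a level whose difference did not pass the test. BCL2L2 held under 1% in every library, at most 0.972%.

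**Figure D2:**
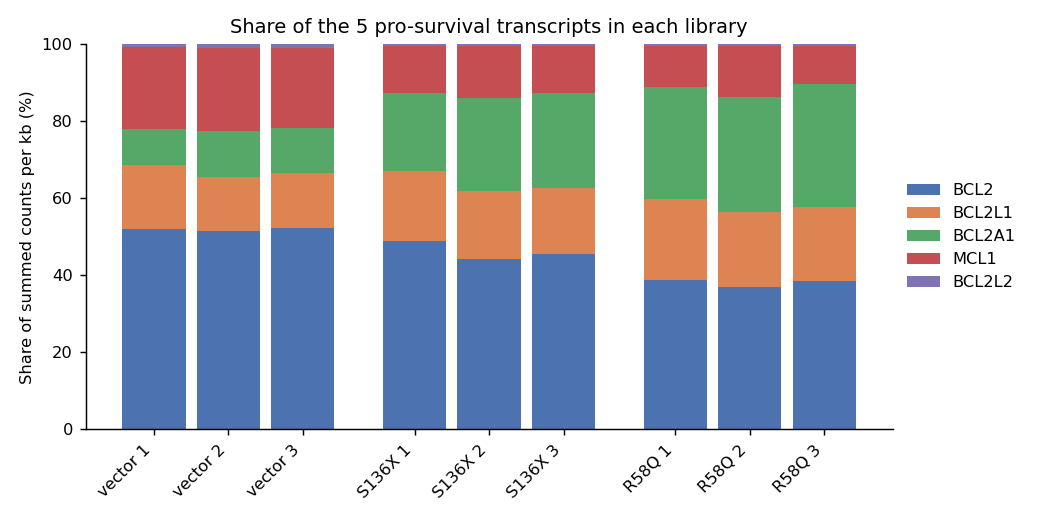
Share of each member in the summed counts per kb of exon (percent, stacked from 0 to 100) in each of the 9 libraries. The BCL2 part is 51.5% to 52.2% in vector and 37.0% to 38.8% in R58Q, and the BCL2A1 part goes from 9.19% to 11.9% in vector to 29.2% to 32.0% in R58Q.

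For 14 of 15 shares compared (5 members, 3 comparisons), the 2 groups did not overlap and the two-sided exact permutation test gave p = 0.10, the smallest that 3 against 3 can give (0.107 adjusted over the 15). The 1 exception was MCL1 between the mutants (exact permutation p = 0.30). The 5 shares of a library sum to 100% and are not independent of each other. The sum rested on 68803 to 113136 counts per library. Counting error alone set a share of the plain counts to within 0.304 percentage points (95% Wilson interval, widest half-width). No such interval was computed for the shares per length, to which that bound does not apply. That interval covers counting error only.

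The size of the shares depended on how length was handled. From plain counts, with no length, BCL2 held 79.1% to 79.8% in vector, 78.1% to 80.7% in S136X and 73.6% to 76.0% in R58Q. The BCL2 share in S136X then overlapped vector, while that in R58Q stayed below it. BCL2A1 held 1.29% to 1.70%, 3.11% to 3.95% and 5.24% to 5.84% in the 3 groups on the same scale, and its order of groups was kept.

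The ratio of each member to BCL2 within a library does not depend on library scaling, and its change between groups does not depend on length. BCL2A1 stood at 20.9% of the BCL2 level per kb in vector, 49.5% in S136X and 79.7% in R58Q (geometric means of 3 libraries). As log2 ratios these were -2.50, -2.11 and -2.16 in the vector libraries, -1.27, -0.88 and -0.89 in S136X and -0.41, -0.30 and -0.27 in R58Q. The ratio was 2.37 times that of vector in S136X and 3.82 times in R58Q. BCL2L1 stood at 28.9%, 38.2% and 51.7% of BCL2 in the 3 groups, 1.32 and 1.79 times the vector ratio. The ratios of both genes separated the 3 groups without overlap.

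The ratio of MCL1 to BCL2 went the other way. MCL1 stood at 40.9% of the BCL2 level per kb in vector, 27.2% with S136X and 29.3% with R58Q. As log2 ratios these were -1.29, -1.26 and -1.32 in vector, and between -2.02 and -1.50 in the 6 mutant libraries. BCL2L2 went from 1.77% of BCL2 to 1.27% and 1.197%. The levels of MCL1 and BCL2L2 themselves did not pass against vector, while BCL2, the denominator of all these ratios, rose with both mutants. The ratios share that denominator and are not independent of each other. Each of the 8 differences from vector (4 members, 2 mutants) separated the groups, with p = 0.10 in the exact permutation test and 0.12 adjusted over 12 comparisons. Between the mutants, MCL1 (exact permutation p = 0.60) and BCL2L2 (exact permutation p = 0.50) overlapped.

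**Figure D3:**
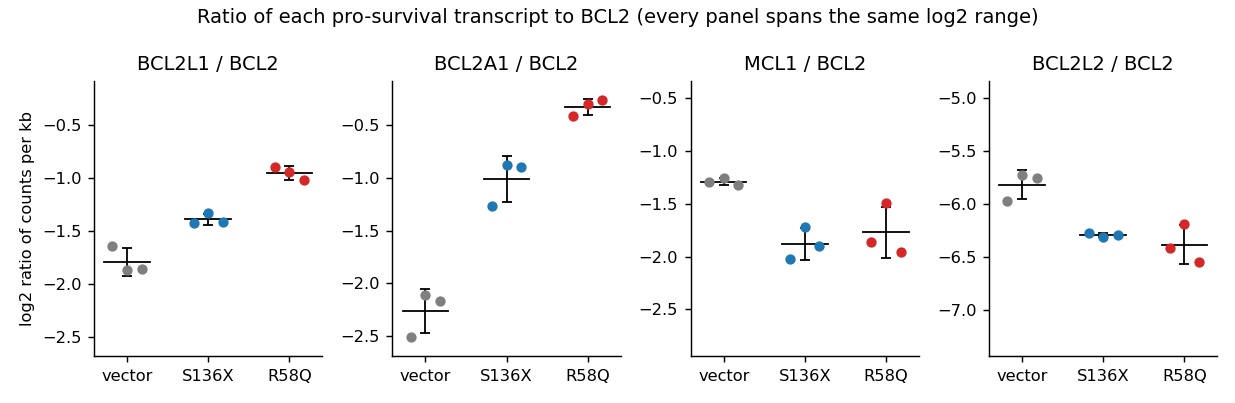
Log2 ratio of counts per kb of each other member to BCL2, 1 point per library, with mean (bar) and SD (whisker). Each panel spans the same log2 range. BCL2A1 goes from a mean of -2.26 in vector to -1.01 in S136X and -0.33 in R58Q, and MCL1 from -1.29 to -1.88 and -1.77.

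The summed level of the 5 was 264, 275 and 286 CPM per kb in vector, 403, 431 and 415 in S136X and 520.3, 503 and 579.7 in R58Q. The groups did not overlap, and the geometric means were 1.51 and 1.94 times that of vector. With S136X, BCL2A1 made up 46.5% of the difference in the sum, BCL2 35.0% and BCL2L1 22.8%, while the mean of MCL1 differed by -5.97 CPM per kb. With R58Q these parts were 51.2%, 23.6% and 24.7%. They depended on length. With the longest transcript, BCL2 made up more (43.0%) than BCL2A1 (38.2%) with S136X, and BCL2A1 43.8% with R58Q. From plain CPM, BCL2 made up 79.3% and 66.5% with the 2 mutants and BCL2A1 9.74% and 13.4%. Fewer or more cells in a given state and less or more RNA per cell cannot be told apart in these bulk libraries.

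BCL2A1 and BCL2L1 were higher in R58Q than in S136X in the direct comparison, which carried the 2 dates. BCL2A1 was 1.69-fold higher (log2 0.76, 95% interval 0.48 to 1.03, adjusted p = 0.0484) and BCL2L1 1.43-fold (log2 0.51, interval 0.36 to 0.67, adjusted p = 0.0231). So 2 of 5 members passed, where 0.533% of 15195 genes passed and 0.349% were higher, and 1 was called, where 0.434% of genes were called and 0.27% called higher. All 3 R58Q libraries lay above all 3 S136X libraries for both genes. BCL2 (log2 0.08, interval -0.10 to 0.25), MCL1 (0.18, interval -0.04 to 0.40) and BCL2L2 (-0.02, interval -0.24 to 0.21) did not pass.

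The BCL2A1 call between the mutants was lost without any 1 of the 6 libraries, with adjusted p from 0.0722 to 0.202, and with scaling by total counts only (adjusted p = 0.0501). BCL2L1 passed without R58Q replicate 2 (adjusted p = 0.0136) and with none of the other 5 left out, where adjusted p went up to 0.160. With the replicate number as a block, as the libraries' deviations tended to pair by number, BCL2A1 and BCL2L1 passed at adjusted p = 1.37e-08 and 4.18e-07. MCL1 passed as well (log2 0.18, adjusted p = 0.00396), where 14.6% of all genes passed in that fit. BCL10 itself was 0.804 times its S136X level in R58Q (adjusted p = 0.363, and 0.000189 with the block).

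**Figure D4:**
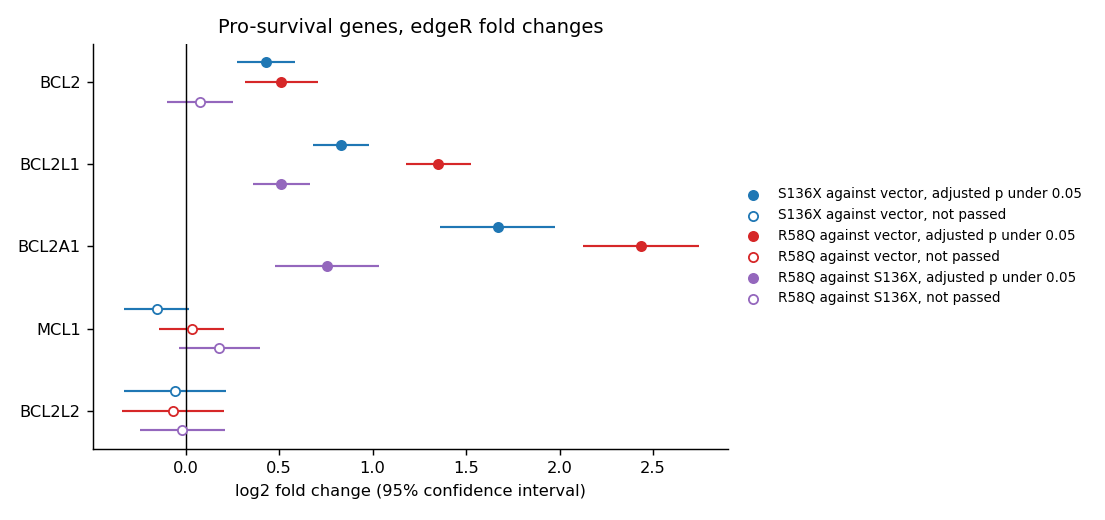
Log2 fold change of each member (x axis) with its 95% confidence interval from edgeR, for each mutant against vector and for R58Q against S136X. Filled points passed an adjusted p of 0.05. BCL2A1 reaches 2.43 with R58Q, and the intervals of MCL1 and BCL2L2 include 0 in each comparison.

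Of the 16 other BCL2 family genes, 15 were tested. With S136X, 3 rose and 2 fell (3 called), beside 10.1% of all genes that passed and 3.87% called, and the list's median log2 fold change was 0.12. With R58Q, 3 rose and 3 fell (3 called), beside 21% and 7.63%, with a median of 0.15. The effectors BAX and BAK1 did not pass against vector (log2 0.12 and 0.18 with S136X, 0.08 and 0.17 with R58Q), and BOK, the effector not tested, had at most 1 count in a library. The pro-survival BCL2L10 did not pass either, at 0.267 to 1.54 CPM, with log2 fold changes of 1.22 (adjusted p = 0.0750) and 1.11 (adjusted p = 0.133). BCL2L10 passed with S136X in the blocked fit (log2 1.23, adjusted p = 0.0165) and, with no filter on low counts, with both mutants (adjusted p = 0.0183 and 0.0468). BCL2L10 also passed with R58Q without R58Q replicate 2 (adjusted p = 0.0368).

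The called genes were all BH3-only genes, which antagonise the pro-survival members, and they went both ways. PMAIP1, which encodes NOXA, the ligand of MCL1 and BFL1, rose from 571 to 606 CPM in vector to 848 to 962 in S136X (log2 0.64, adjusted p = 0.00146) and 1006 to 1090.2 in R58Q (log2 0.83, adjusted p = 0.000146). BID, the link from death receptors to mitochondria, rose by 0.76 (adjusted p = 0.000340) and 0.78 (adjusted p = 0.000338) on the log2 scale. HRK, which binds BCL2 and BCL-xL, fell by 1.198 (adjusted p = 0.0110) and 1.03 (adjusted p = 0.0144), from 40.4 to 57.7 CPM in vector to 16.6 to 34.4 in the mutants. Without vector replicate 2, HRK no longer passed in either comparison (adjusted p = 0.0583 and 0.0657).

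The remaining family genes that passed are named after their values were seen. BCL2L11, which encodes BIM and binds all the pro-survival members, fell by 0.49 (adjusted p = 0.00650) with S136X and by 0.41 (adjusted p = 0.00326) with R58Q. It was at 301 to 323 CPM in vector and 199 to 241 in the mutants. BMF fell by 0.46 with R58Q (adjusted p = 0.0160, but 0.0510 without vector replicate 2 and 0.0572 without R58Q replicate 3), and with S136X it was at log2 -0.11 (adjusted p = 0.554). The outer-membrane protein gene BCL2L13 rose by 0.36 (adjusted p = 0.0153) and 0.27 (adjusted p = 0.0454). BCL2L13 lost its R58Q result with limma-voom (adjusted p = 0.0508), with scaling by upper quartile (0.101) or total counts (0.0825), and without any 1 library except R58Q replicate 2 (0.0504 to 0.154). With S136X it lost it without vector replicate 2 (0.0806) or S136X replicate 3 (0.0505). BCL2L14, at most 3.12 CPM, was at log2 0.51 (adjusted p = 0.445) and 1.17 (adjusted p = 0.107), and passed with R58Q in the blocked fit (adjusted p = 0.00254), with no filter (0.0123) and without R58Q replicate 1 (0.0415).

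Between the mutants, 0 of the 15 passed by edgeR, 2 had an unadjusted p under 0.05, and 0 passed by DESeq2 or limma-voom. The largest differences that did not pass were BCL2L14 (log2 0.66, adjusted p = 0.621) and BMF (log2 -0.35, adjusted p = 0.353). With the replicate number as a block, 4 of the 15 passed, where 14.6% of all genes did. Among them were BMF (adjusted p = 4.36e-06) and BCL2L14 (adjusted p = 0.0455). BCL2L14 alone was called, where 2.94% of all genes were called.

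**Figure D5:**
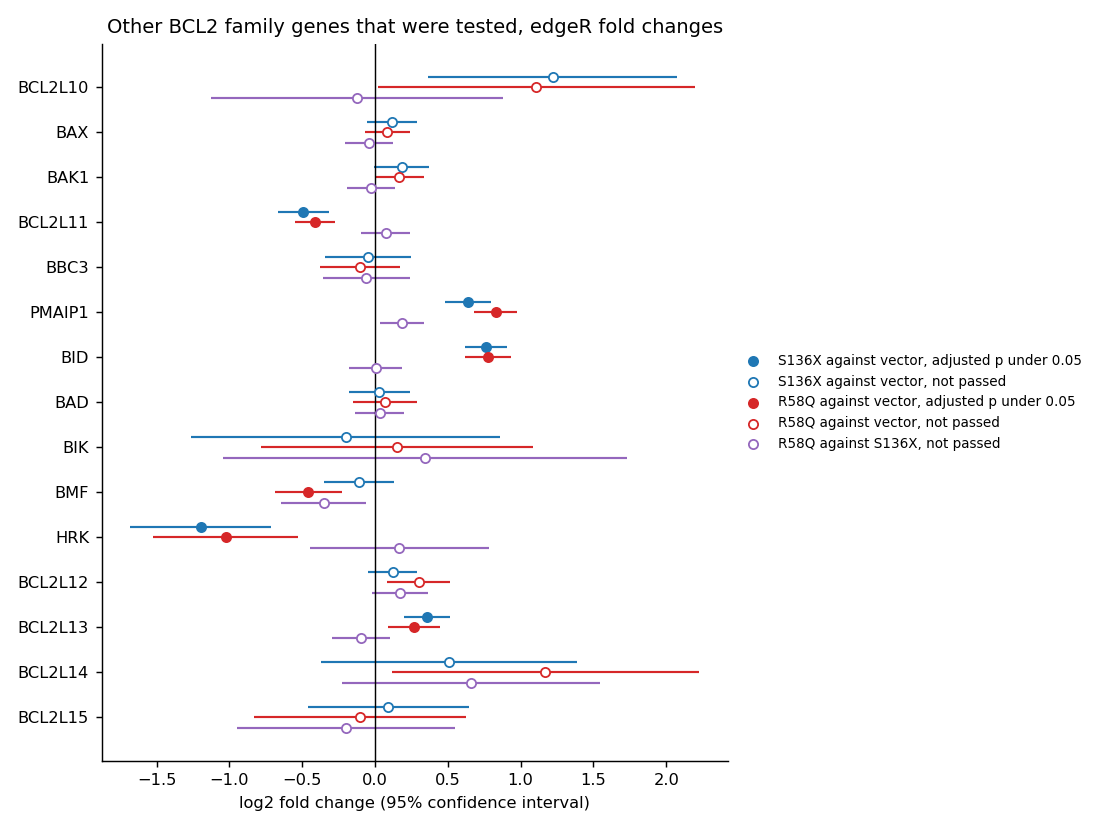
Log2 fold change of the 15 other BCL2 family genes tested (x axis) with 95% confidence intervals from edgeR, for each mutant against vector and for R58Q against S136X. Filled points passed an adjusted p of 0.05. PMAIP1 and BID lie above 0 and BCL2L11 and HRK below 0 with both mutants.

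Around the family, the genes of protein turnover (ligases and deubiquitinases that act mainly on MCL1) held no gene that was called. Of 7 listed, 6 were tested and 0 passed with either mutant by edgeR fitted as above, with 0 (S136X) and 2 (R58Q) at an unadjusted p under 0.05. With R58Q, 2 passed under each of DESeq2, the replicate block and no filter, where 22.5%, 35.2% and 12.1% of all genes passed. In a fit of all 9 libraries and without vector replicate 1, 1 passed each, where 22.1% and 18.4% of all genes passed. Of 8 genes that act downstream of the mitochondrion, 1 passed with S136X and 2 with R58Q, all higher, and 1 was called with R58Q, shares near the 10.1% and 21% of all genes that passed. CYCS, which encodes cytochrome c, rose by 0.41 with R58Q (adjusted p = 0.00583) and was at log2 0.24 with S136X (adjusted p = 0.0558). In the reference list of 10 NF-kB survival and feedback genes, 8 rose with S136X (6 called), where 3.87% of all genes were called. With R58Q, 9 rose and 1 fell (9 called), where 7.63% of all genes were called. The list's median log2 fold changes were 0.82 and 1.29. With S136X and R58Q, TRAF1, a TNF receptor adaptor, rose by 1.25 and 2.61, TNFAIP3 (A20) by 1.03 and 1.36, and NFKBIA (IkB alpha) by 0.99 and 2.03. BCL3 fell by 0.61 with R58Q and was at log2 -0.26 with S136X (adjusted p = 0.0613, edgeR).

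Genes whose log2 CPM ran most like a member over the 9 libraries were looked up among 10243 genes with a mean of at least 5 CPM. The libraries share 3 groups, so that any gene that differs between them in the same order scores high, and the values are a description only. For BCL2A1 they were CFLAR, CD80 and CLEC2D, each at Pearson r of 0.995 or 0.996. For BCL2L1 they were MGLL (0.997), DNAJA2 (0.995) and LTA (0.994), and for BCL2 they were DNAJC2 (0.988), IRF4 (0.986) and STK4 (0.982). MCL1 was nearest to CIRBP (0.973) and COMMD6 (0.962), and BCL2L2 to DGKH (0.904), MICA (0.884) and STRIP2 (0.877). Among the members, r was 0.937 to 0.972 between BCL2, BCL2L1 and BCL2A1, and -0.232 to 0.0016 between each of these and MCL1.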

How the data were processed

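RNA of 9 RIVA libraries (poly(A) selected, single-end reads) was counted per gene by the authors. The submitters' processing notes name cutadapt, STAR, Picard and hg38. The counting program and annotation are not given in the sources used here. The authors deposited raw read counts and, beside them, a normalized signal, for which each library's counts had been divided by a single factor, and that was not used further. Of the gene identifiers 96.3% are in GENCODE, whose exons gave the lengths. The columns without a sample numbered 0, and 0 rows lacked a gene.

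From the counts, edgeR 4.0.16 in R 4.3.3 gave the tests (filterByExpr with minimum count 10 and minimum total 15, TMM, glmQLFit, glmQLFTest, Benjamini-Hochberg), each pair of groups on its 6 libraries. Called genes had an adjusted p under 0.05 and at least a 1.5-fold change. SE is the log2 fold change over the root of F. The alternatives were DESeq2 1.42.0, limma-voom (limma 3.58.1), other scalings, filters, thresholds and lengths, all 9 libraries in one fit, a replicate block and each library left out. Shares and ratios used scipy's exact permutation tests, and no p is given for the summed level. Scripts were tested on simulated data.

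The members and lists were chosen with earlier results of these data known. Named were all 5 members, BCL10, called other family genes with the 2 largest not called, at most the 2 highest and 2 lowest called genes of each further list, genes overlapping a member, and the 3 most alike genes, except 2 genes that are not reported here. Replicates are called biologic by the study. No 2 libraries of a group were alike to within counting noise, the chi-square statistic over its degrees of freedom being 7.82 to 24.3, and none were merged. Deviations of same-numbered libraries from their group means correlated in all 9 pairs (r of 0.143 to 0.626, median 0.425). Other pairs had a median of -0.251, with 2 of 18 above 0.1. Deviations of a group sum to 0, so high values for same numbers lower the others. The numbers thus tended to pair the libraries, but vector replicate 2 was not singled out. With R58Q replicate 2, r was 0.163 for vector replicate 2 and 0.169 for vector replicate 3. No label states a shared batch.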

Additional observations from a re-analysis of the deposited data

Results flagged for a closer look

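Some genes differed in level between the 2 mutants, by the direct test of R58Q against S136X (edgeR, adjusted over 15195 genes). Among the pro-survival members these were BCL2A1, with a log2 difference of 0.76 (SE 0.12, adjusted p = 0.0484), and BCL2L1, with 0.51 (SE 0.07, adjusted p = 0.0231). Both were higher in R58Q in 3 of 3 libraries, above every S136X library, and how many of all genes separate so was not computed. BCL2 is not among them, and its difference between the mutants was 0.08.

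In the reference list of NF-kB survival genes, 5 of 10 passed in the same comparison, each higher in R58Q (0.533% of all genes passed). With the replicate number as a block 9 passed, 8 higher and 1 lower, where 14.6% of all genes passed. By DESeq2 8 passed, where 2.09% of all genes did. TRAF1 differed by 1.35 (SE 0.11, adjusted p = 0.00419) and NFKBIA by 1.03 (SE 0.11, adjusted p = 0.0138). BIRC2, an inhibitor of apoptosis, differed by 0.60 (adjusted p = 0.0242), CFLAR, an inhibitor of caspase-8, by 0.56 (adjusted p = 0.0411), and NFKB2 by 0.52 (adjusted p = 0.0406). These 3 are named after their values were seen. Against vector, BIRC2 rose with R58Q (log2 0.71, adjusted p = 0.000362, edgeR) and did not pass with S136X (log2 0.10, adjusted p = 0.478). Without 1 library, BCL2A1 and CFLAR no longer passed in all 6 cases, BCL2L1 and NFKB2 in 5 of 6, BIRC2 in 4 and NFKBIA in 3, and TRAF1 in 1 (without S136X replicate 3, adjusted p = 0.0557), with adjusted p up to 0.202 over these genes. The R58Q libraries carry a date of their own in the column names, which cannot be told apart from the mutant.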

How the results depend on the processing

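Against vector, the 2 members called stayed at 2 with each mutant under every other tool, scaling, filter and left-out library, and at least 2-fold left 1 with S136X (BCL2A1). Between the mutants, 1 member was called, 2 without the fold threshold, and 0 at 2-fold, with total counts only or without any 1 library (lowest 0, highest 0, where edgeR had 2 or 3 members at an unadjusted p under 0.05, while DESeq2 and limma-voom on all 6 libraries called 1). Other family genes called went from 3 to 5 with S136X and 6 with R58Q without the fold threshold, and to 1 at 2-fold in both. With no filter there were 5 with R58Q, where 4.76% of all genes were called. The replicate number, fitted as a block, moved the other family genes called from 3 to 4 with each mutant against vector. Between the mutants it moved them from 0 to 1. It left the members called at 2, 2 and 1, beyond the values given above. In that fit 6.53% (S136X), 10.7% (R58Q) and 2.94% (between the mutants) of all genes were called.

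The following shifts come from how length and scaling enter the share and the sum. With no length, the difference in BCL2 share was -0.0123 (S136X against vector), -4.43 (R58Q against vector) and -4.42 (R58Q against S136X) percentage points, and that in BCL2A1 share 2.12, 3.99 and 1.87. With the longest transcript, the BCL2A1 share differed by 9.66 with S136X and 16.2 with R58Q. The log2 difference of the sum was 0.43, 0.59 and 0.16 with no length, and 0.55 with S136X under total counts only. Some signs turned. MCL1 with R58Q was at log2 -0.0250 with total counts only, -0.0324 with upper-quartile scaling and -0.0429 to 0.0962 with 1 library left out. Between the mutants, its share differed by -1.32 percentage points per length and by 0.188 with no length, and its log2 ratio to BCL2 by -0.0284 to 0.199 with 1 library left out. BCL2L2 ran from -0.143 to 0.0226 with S136X, from -0.149 to 0.000188 with R58Q and from -0.0539 to 0.0102 between the mutants with 1 library left out. Over all genes, those called went from 601 to 934 with no filter and 1014 with the block for S136X, and between the mutants from 66 to 114 in one fit of all 9 libraries, 146 with DESeq2, 165 with no filter and 446 with the block. With 1 library left out they were 279 to 705 (S136X), 719 to 1248 (R58Q) and 5 to 63 (between the mutants). Groups of 3 limit what the permutation tests can reach, and no protein was measured in these files.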

Other observations

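Of the 2 noncoding transcripts annotated inside the BCL2 gene, 1 fell and 1 rose with R58Q, where BCL2 rose. The antisense AC022726.2, which shares 0 exon bases with BCL2, held 73, 86 and 71 counts in vector, 45, 40 and 19 in S136X and 30, 30 and 28 in R58Q. It fell by 1.26 on the log2 scale with R58Q (SE 0.20, adjusted p = 0.00448, edgeR), and was at -0.99 with S136X (SE 0.29, adjusted p = 0.0648). The sense intronic AC022726.1 rose with R58Q (log2 0.93, SE 0.27, adjusted p = 0.0446), from 26 to 39 counts in vector to 41 to 71. Opposite BCL2L2, PPP1R3E, which encodes a glycogen-targeting phosphatase subunit, fell by 0.62 with S136X (adjusted p = 0.0442) and by 0.67 with R58Q (adjusted p = 0.0132), while BCL2L2 did not pass. PPP1R3E shares 4.92% of the exon bases of BCL2L2 on the other strand. These genes were fitted with edgeR on all libraries only, not under the alternatives. Without strand, reads from such pairs cannot be told apart.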
